A study of Mus musculus with 2 samples.

Results

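Collagen processing, crosslinking and secretion were described for 40 listed mouse genes that act on collagen chains between their synthesis and their fixing in the matrix. They were found on the arrays by gene symbol: a probe set, the group of short probes for a transcript, was used if the platform annotation gave it that symbol alone, and the brightest such probe set stood for the gene. A gene was compared if its log2 signal reached 7, the floor below which signal is close to background, in at least 1 array. Of the 40 genes, 37 had a probe set of their own and 36 passed the floor, among 9897 genes over the floor on the whole array. P4ha3 stayed under it, with a log2 signal of 5.65 in the miR-140 knockout array and 5.72 in the wild-type array. Fkbp10, Adamts14 and Loxl2 had no probe set with their symbol alone and were not analysed here.

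Both arrays were Affymetrix mouse genome chips hybridised with total RNA from cultures of rib chondrocytes, the cartilage-forming cells, of mice aged 5 days. The deposited signals are log2 values from Robust Multichip Average (RMA), which corrects background and gives both arrays nearly the same distribution. The knockout culture lacked miR-140 (miR-140-/-), the other was wild type, and both carried a strain label naming C57BL/6 and CBA without giving their share. How many mice went into a culture, their sex and how the allele was made are not given in the sources used here. There is 1 array per group, so there is no spread between cultures, no test and no standard error. Every difference below is the log2 signal of the knockout array minus that of the wild-type array, and holds for these 2 arrays.

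MicroRNAs repress messenger RNAs mainly through their seed, bases 2 to 8. The strand below is a mature product of Mir140 from the RefSeq table (GRCm38.p6, chr8:107551288-107551308, plus strand), shown because the knockout removes it, with the seed in capitals.
mmu-miR-140-3p: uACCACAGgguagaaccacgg
No 3′ untranslated sequence was used here, so it was not asked which members carry a match to it.

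Collagen is made as procollagen in the endoplasmic reticulum. There prolines and lysines are hydroxylated, sugars are added to hydroxylysine, and chaperones hold the chains until the triple helix has formed. Folded procollagen is too long for usual transport vesicles and leaves through an enlarged COPII coat with the help of TANGO1, the product of Mia3. Outside the cell the end peptides are cut off and lysyl oxidases start the crosslinks between molecules. In cartilage most of this work serves type II collagen, and loss of several of these genes causes skeletal disease.

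The arrays also differed in cell type markers, sex-linked genes and ribosomal RNA signal. All 13 chondrocyte markers over the floor were at least 2-fold lower in the knockout array, with a median of -2.40, and the summed linear signal of the 14 listed markers was 15879 in the knockout and 67839.7 in the wild type. Of 13 markers of fibroblasts and perichondrium over the floor 10 were higher, with a median of 0.27, where 59.2% of all genes over the floor were lower. Postn (-1.26), Dcn (-0.17) and Fbln1 (-0.09, with a second probe set at 0.74) were lower. Summed signals over 15 genes were 38031 in the knockout and 30837 in the wild type. Of the 7 macrophage and leukocyte, 6 endothelial and 6 skeletal muscle markers, 3, 1 and 1 passed the floor, none of them above 7.38 in either array, and Ptprc, Pecam1, Cdh5 and Myog stayed under it. Xist stood at 3.59 and the Y-linked Eif2s3y at -4.68, so the sex of the mice behind the cultures was not the same or was mixed unequally, while no member over the floor lies on the X or Y chromosome. The 3 probe sets for 18S ribosomal RNA had a median of -0.52, and the 3′ minus 5′ signal of Actb was 0.54 in the knockout and 0.81 in the wild type. All 6 probe sets of Wwp2, the host gene of Mir140, were lower in the knockout, by 0.15 to 4.50 on the log2 scale. Those that differed by -0.15 and -0.60 lay under the floor in both arrays. In bulk RNA, fewer cells of a type and less RNA per cell cannot be told apart, and the part of these differences in the results below was not tested.

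The collagen-processing genes stood slightly lower in the knockout array. Of the 36 members over the floor, 28 had lower and 8 had higher signal (77.8% lower), where 59.2% of all genes over the floor were lower. Their median difference was -0.20, a 1.14-fold lower signal, against -0.05 for all genes. At least 2-fold lower signal was found for 3 members, where 1.22% of all genes were that much lower, and at least 1.5-fold lower signal for 6, where 3.56% were. No member was 1.5-fold or 2-fold higher, where 1.56% and 0.475% of all genes were. Colgalt2 passed the floor through the wild-type array alone and so had to differ. Without it 35 members remain, 27 of them lower, 2 of them at least 2-fold lower, with a median of -0.18.

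**Figure D1:**
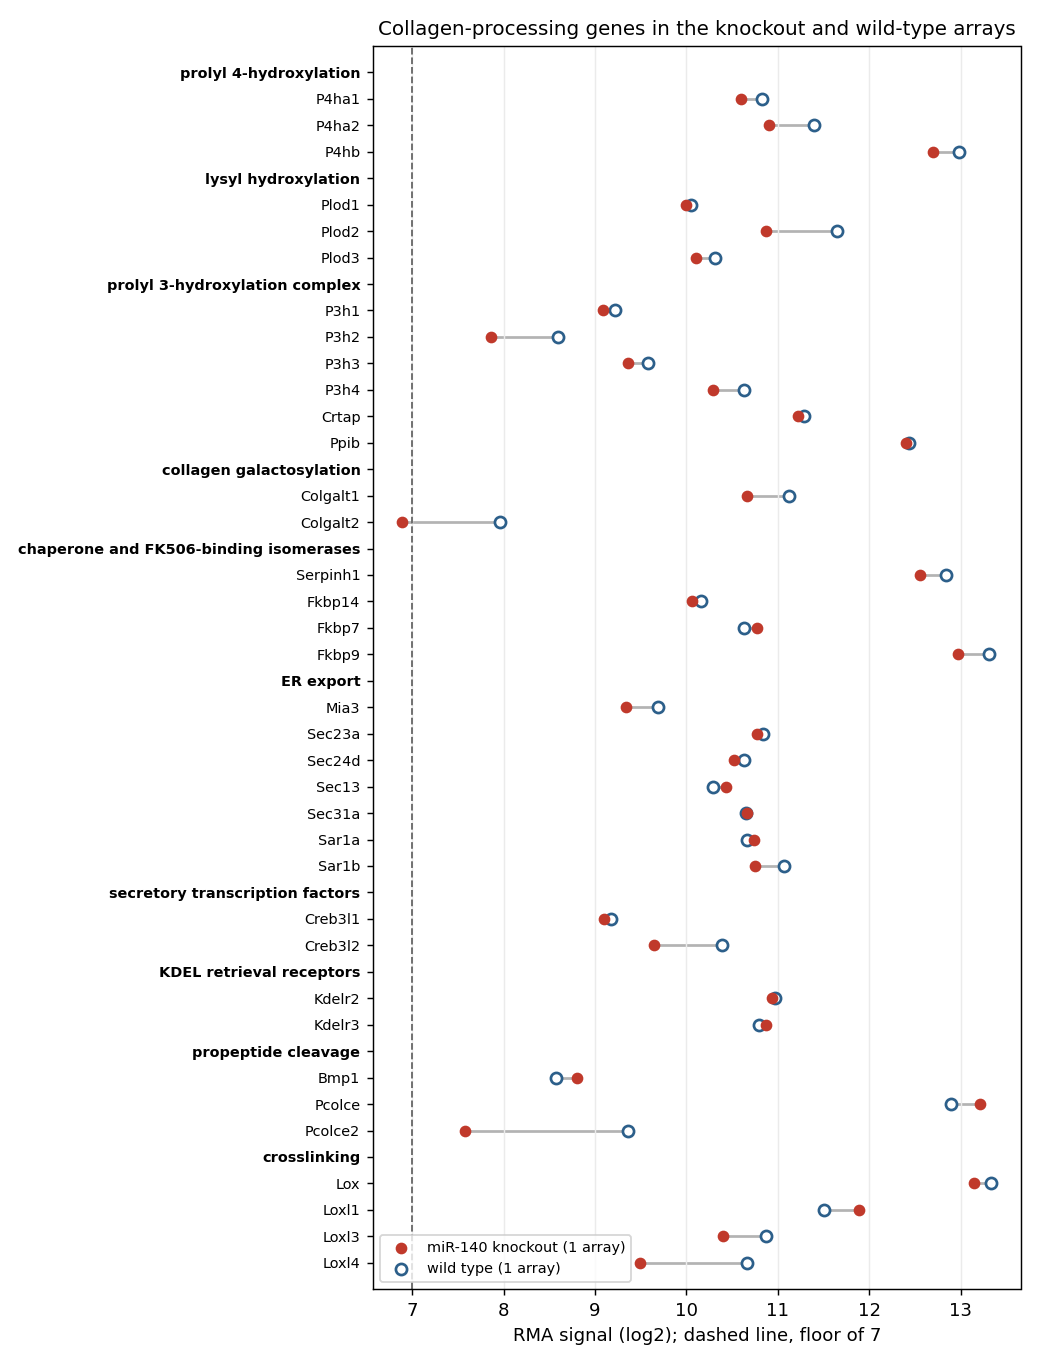
Log2 RMA signal of the 36 collagen-processing genes over the floor, by step, with filled points for the knockout array and open circles for the wild-type array (1 array each). The knockout point lies left of the wild-type point for 28 genes, and farthest left for Pcolce2 (7.57 in the knockout, 9.36 in the wild type).

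A rough scale for these differences comes from genes with several probe sets. Over the 3838 genes with at least 2 probe sets above the floor, differences of probe sets of the same gene scattered with a pooled SD of 0.27. This measures how well probes of a gene agree within this pair of arrays, not how cultures vary. Of the members, 17 (47.2%) differed by more than this value, 15 of them lower and 2 higher, where 22.4% of all genes did. The other 19 members lay within it. Of 16 members with several probe sets over the floor, 13 had all of them in the same direction, and P4ha1, Plod1 and Lox did not. The share of the 3838 genes that did so was not counted, so whether this is usual is not known. Ppib (-0.03 and -0.01) and Kdelr2 (-0.03 and -0.02) are among the 13 though they lay near 0.

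**Figure D2:**
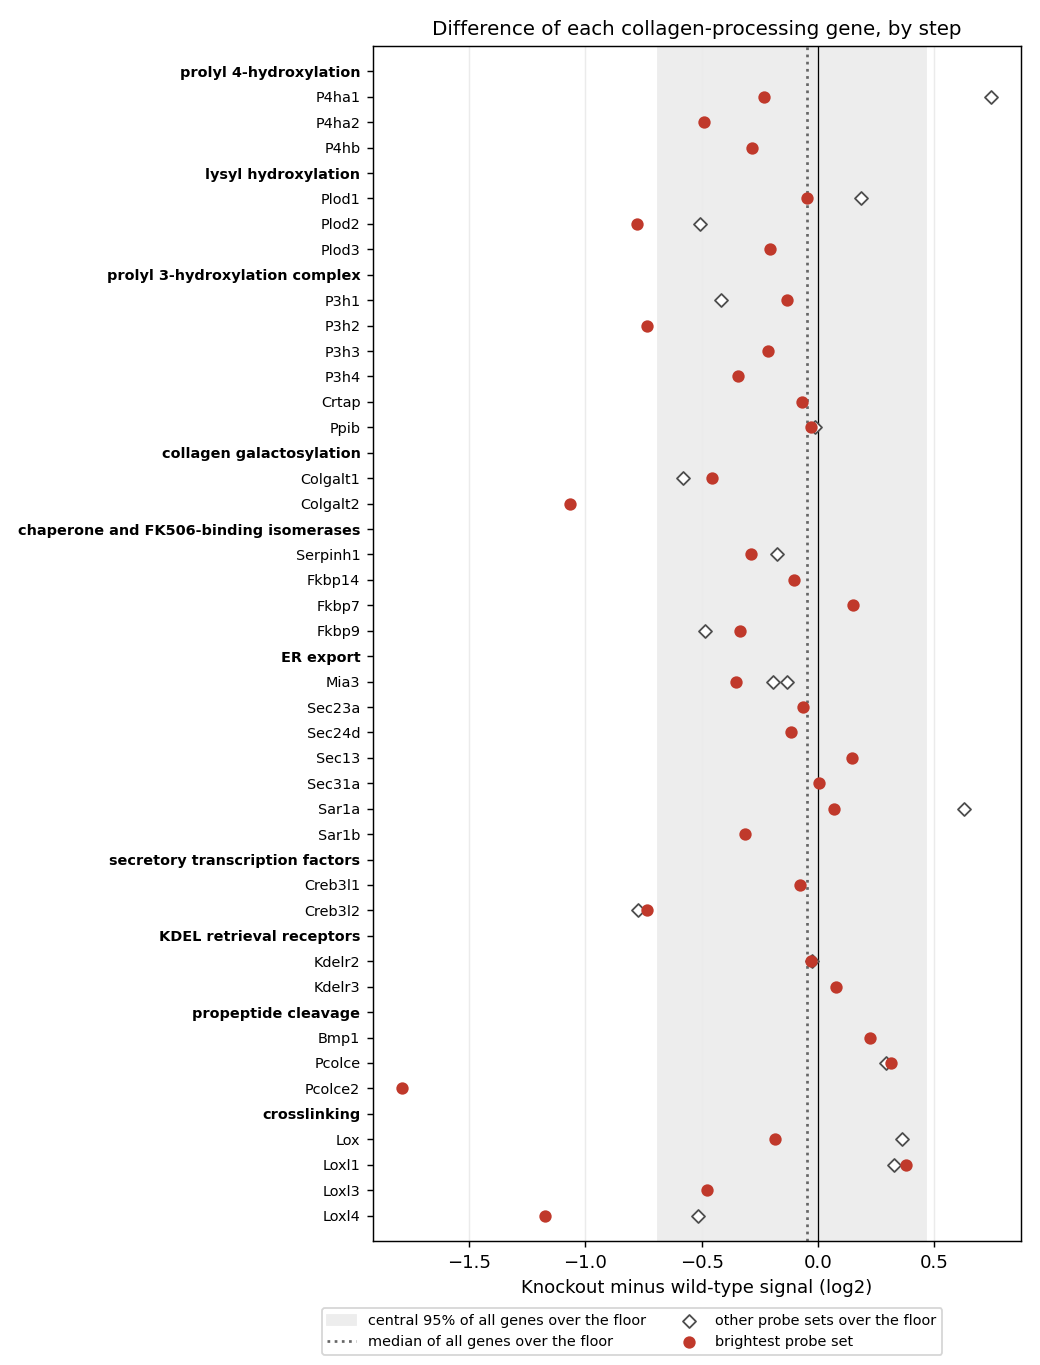
Knockout minus wild-type log2 signal of the brightest probe set of each member (filled) and of its other probe sets over the floor (diamonds), by step. The grey band spans the central 95% of all genes over the floor (-0.69 to 0.47) and the dotted line their median. Brightest probe sets of 6 members, all lower in the knockout, lie outside the band, and the second probe sets of P4ha1 and Sar1a lie beyond its upper edge.

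Hydroxylation of proline at the fourth carbon makes the collagen helix stable at body temperature. The enzyme is a tetramer of a catalytic alpha subunit, from P4ha1, P4ha2 or P4ha3, and protein disulphide isomerase, from P4hb. P4ha2 read 10.90 in the knockout and 11.40 in the wild type, a difference of -0.49, which places it at percentile 4.81 of all genes over the floor. P4hb read 12.70 in the knockout and 12.98 in the wild type (-0.28). P4ha2 and P4hb were thus lower, each by more than the scatter between probe sets (0.27). P4hb passed it only just, by 1 probe set, and its difference ranged from -0.28 to -0.19 over the other settings. For P4ha1 no direction is given: its brightest probe set read 10.59 in the knockout and 10.83 in the wild type (-0.23), the other read 9.88 in the knockout and 9.14 in the wild type (0.74), and the mean of both differed by 0.26.

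Lysyl hydroxylases prepare lysines for sugar addition and for crosslinks. Plod2, which acts on the telopeptides at the chain ends and so sets the kind of crosslink, read 10.87 in the knockout and 11.64 in the wild type (1.71-fold lower, -0.78), at percentile 1.95. Its second probe set was lower as well (-0.51). Plod3, which also carries glycosyltransferase activity, differed by -0.21 (10.10 in the knockout, 10.31 in the wild type). Plod1, which acts on lysines within the helix, read 10.00 in the knockout and 10.04 in the wild type (-0.05), with a dimmer probe set at 0.18. The Plod2 difference lay 0.73 below that of Plod1 and 0.57 below that of Plod3. For the nearest probe sets these gaps were 0.46 and 0.30.

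All 6 genes of the prolyl 3-hydroxylation group had lower signal, where 59.2% of all genes over the floor did. By more than the scatter between probe sets 2 of them differed, where 22.4% of all genes did in either direction. Crtap and Ppib lay near the median of all genes (-0.05), and Ppib changed sign in 3 of 10 other settings. P3h1, Crtap and Ppib encode the hydroxylase, the helper and the cyclophilin of a complex that modifies single prolines of fibrillar collagens. This complex differed little: P3h1 stood at -0.13, Crtap at -0.07 and Ppib at -0.03, with a second P3h1 probe set at -0.42. P3h2, a related hydroxylase that also acts on basement membrane collagen, read 7.86 in the knockout and 8.59 in the wild type (1.66-fold lower, -0.73). P3h3 and P3h4, whose products work with lysyl hydroxylase 1 in mice, stood at -0.21 and -0.34. The P3h2 difference lay 0.52 below that of P3h3 and 0.60 below that of P3h1.

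Both galactosyltransferases that add the first sugar to hydroxylysine had lower signal. Colgalt1 read 10.66 in the knockout and 11.12 in the wild type (1.37-fold lower, -0.45), and its second probe set differed by -0.58. Colgalt2 read 6.89 in the knockout and 7.96 in the wild type, a difference of -1.07. The knockout value lies just under the floor, and the difference becomes -0.96, no longer 2-fold, when low values are raised to 7.

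The collagen chaperone and the FK506-binding isomerases differed by less. Serpinh1, which encodes HSP47, the chaperone that binds the procollagen helix, read 12.56 in the knockout and 12.85 in the wild type (-0.29), with a second probe set at -0.18. Fkbp9 stood at -0.33 and its second probe set at -0.48, Fkbp14 at -0.10 and Fkbp7 at 0.15. The probe sets used for Serpinh1 and Fkbp9 are of a type that can bind other transcripts, and the second probe set given for each is the more specific. Serpinh1 with its specific probe set lies within the scatter of 0.27.

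Promoters of these genes were read for a short motif. ACGTG is a form of the core bound by hypoxia-inducible factors, which are known to act on P4ha1, P4ha2 and Plod2. It is also the core of TGACGTGG, a motif of the CREB3 family. Other forms of the hypoxia core were not searched for, so a window without ACGTG may still hold one. Both strands of the 250 bases before the start of transcription (RefSeq, GRCm38.p6, first start listed for each gene) were searched for 26 of the 36 members that the table holds. ACGTG was found for 11 of 26 members (42.3%), and for 22.7% of 8059 genes over the floor with a promoter in the table. The promoters of P4ha2 (chr11:54100674-54100923, plus strand) and P4hb (chr11:120573254-120573503, minus strand) are shown with ACGTG or its reverse complement in capitals. They were chosen because these members of the prolyl 4-hydroxylase step were lower by more than the scatter between probe sets, P4hb only just.
P4ha2: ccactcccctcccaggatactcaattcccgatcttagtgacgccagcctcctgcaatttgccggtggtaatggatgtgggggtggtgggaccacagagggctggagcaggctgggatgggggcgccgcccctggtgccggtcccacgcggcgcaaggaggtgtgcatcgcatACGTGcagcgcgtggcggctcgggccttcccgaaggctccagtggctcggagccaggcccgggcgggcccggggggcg
P4hb: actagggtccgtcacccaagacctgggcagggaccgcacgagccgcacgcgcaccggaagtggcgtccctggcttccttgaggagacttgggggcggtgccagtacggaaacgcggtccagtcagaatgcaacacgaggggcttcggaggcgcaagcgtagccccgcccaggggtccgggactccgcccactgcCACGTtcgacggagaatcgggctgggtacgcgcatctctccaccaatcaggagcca
The match begins 78 bases before the start for P4ha2 and 56 bases before it, on the other strand, for P4hb. Positions and the presence of a motif depend on the start used. Of 22 members with 1 listed start, 17 had the same start in the gene annotation. P4ha1, Plod3, Serpinh1, Fkbp9 and Mia3 hold 1 match each, and Ppib, which differed by -0.03, holds 2. Sar1a, which was higher (0.07), holds 3, the most among the members searched, at bases -156, -7 and -6, the last pair overlapping on opposite strands. Sec24d and Kdelr3, the remaining members with ACGTG, are given with the CREB3 motif. Genes of the hypoxia response outside collagen processing were lower for 12 of 16 (median -0.15), where 59.2% of all genes were lower, with Ero1a at -0.89, Ndrg1 at -0.60, Pfkp at -0.43 and Pfkfb3 at -0.41. Ero1a ranged from -0.89 to -0.17 over 3 probe sets, Ndrg1 from -0.60 to -0.05 over 5, and Pfkp from -0.43 to 0.25 over 2. Car9, at 0.40, and Egln3, at 0.27, were higher, and Pgk1 (-0.11), Ldha (-0.12) and Aldoa (-0.01) lay near 0; these 5 were added after their values were seen. A motif match is a description of the sequence, and whether any factor binds there was not measured.

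Genes of export from the endoplasmic reticulum stood near the median of all genes. The 7 members divided into 4 lower and 3 higher, with a median of -0.06. Mia3, which encodes the receptor that hands procollagen to the coat, read 9.34 in the knockout and 9.69 in the wild type (-0.35). Its more specific probe sets differed by -0.13 and -0.19. Sar1b, a GTPase that starts coat assembly, stood at -0.31, and its paralogue Sar1a at 0.07 with a second probe set at 0.63. The inner coat genes Sec23a (10.77 in the knockout, 10.84 in the wild type) and Sec24d (10.52 in the knockout, 10.63 in the wild type) differed by -0.06 and -0.12. The outer coat genes Sec13 and Sec31a differed by 0.14 and 0.01. Thus the coat subunits themselves lay within the scatter between probe sets.

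Creb3l2 and Creb3l1 encode transcription factors that are cut from the membrane of the endoplasmic reticulum. In mouse chondrocytes Creb3l2 is known to raise Sec23a, and its loss blocks secretion of cartilage matrix. Creb3l2 read 9.65 in the knockout and 10.38 in the wild type (1.67-fold lower, -0.74), at percentile 2.18. Its second probe set read 8.35 in the knockout and 9.12 in the wild type (-0.77), so both agree in direction and size. Creb3l1, best known from osteoblasts, differed by -0.08. Sec23a, at -0.06, did not share the Creb3l2 difference.

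The Creb3 family motif TGACGTGG was present in the promoters of 2 of the 26 members, Sec24d (chr3:123267246-123267495, plus strand) and Kdelr3 (chr15:79516158-79516407, plus strand), which is 7.69%, and in those of 0.782% of the 8059 genes. They are shown with this motif, its reverse complement and any further ACGTG in capitals.
Sec24d: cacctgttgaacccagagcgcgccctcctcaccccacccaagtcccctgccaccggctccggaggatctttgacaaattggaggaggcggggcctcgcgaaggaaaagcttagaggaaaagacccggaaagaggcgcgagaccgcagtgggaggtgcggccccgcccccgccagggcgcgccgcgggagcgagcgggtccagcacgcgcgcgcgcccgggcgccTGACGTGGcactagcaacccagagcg
Kdelr3: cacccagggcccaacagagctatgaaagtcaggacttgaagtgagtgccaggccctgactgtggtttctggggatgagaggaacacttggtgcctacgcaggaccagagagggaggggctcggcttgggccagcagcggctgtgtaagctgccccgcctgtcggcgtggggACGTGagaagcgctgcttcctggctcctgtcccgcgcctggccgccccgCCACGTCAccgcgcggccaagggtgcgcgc
The match spans bases -26 to -19 from the start for Sec24d, and -30 to -23 on the other strand for Kdelr3. Sec24d differed by -0.12 and Kdelr3 by 0.08. The Sec23a window did not hold these letters. Kdelr3 and Kdelr2 encode receptors that return escaped chaperones to the endoplasmic reticulum, and Kdelr2 differed by -0.03. The related Kdelr1, which is no member, stood at -0.48.

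Propeptide cleavage held the member with the largest difference. Pcolce2, an enhancer of the procollagen C-proteinase, read 7.57 in the knockout and 9.36 in the wild type, a 3.45-fold lower signal (-1.78) at percentile 0.384 of all genes over the floor. This rests on 1 probe set, whose knockout signal is close to the floor. Its paralogue Pcolce, which has the same role, read 13.21 in the knockout and 12.90 in the wild type (1.24-fold higher, 0.32), and its second probe set agreed (0.29). The paralogues thus differed in opposite directions, 2.10 apart. Bmp1, the C-proteinase that both enhance, read 8.80 in the knockout and 8.58 in the wild type (0.22), within the scatter between probe sets. With 3 members the step median of 0.22 says little, and it turned to -0.74 with the mean of all probe sets, a setting that took Bmp1 under the floor.

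The lysyl oxidases, copper enzymes that make the aldehydes from which crosslinks form, were also split. Loxl4 read 9.50 in the knockout and 10.67 in the wild type (2.25-fold lower, -1.17), at percentile 1.03. Its second probe set differed by -0.52, and the mean of both was -0.84, which is under 2-fold. Loxl3 read 10.40 in the knockout and 10.88 in the wild type (1.39-fold lower, -0.48). Loxl1, best known from elastic fibres, read 11.89 in the knockout and 11.51 in the wild type (1.30-fold higher, 0.38), with 0.33 for its second probe set, and was the member with the highest difference, at percentile 96.1. Lox, the founding enzyme of the family, read 13.15 in the knockout and 13.33 in the wild type by its brightest probe set (-0.18), and 12.69 in the knockout and 12.33 in the wild type by another (0.36), so no direction is given. Between Loxl4 and Loxl1 the differences lay 1.55 apart, and 0.84 apart for their nearest probe sets.

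Promoters of the lower members Pcolce2 (chr9:95637378-95637627, plus strand) and Loxl4 (chr19:42612807-42613056, minus strand) are shown because these extracellular members differed by the most, and neither window holds ACGTG on either strand.
Pcolce2: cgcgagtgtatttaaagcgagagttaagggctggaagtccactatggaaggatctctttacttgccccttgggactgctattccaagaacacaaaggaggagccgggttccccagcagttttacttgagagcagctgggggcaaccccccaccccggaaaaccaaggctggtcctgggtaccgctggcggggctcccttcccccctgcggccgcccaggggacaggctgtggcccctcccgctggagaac
Loxl4: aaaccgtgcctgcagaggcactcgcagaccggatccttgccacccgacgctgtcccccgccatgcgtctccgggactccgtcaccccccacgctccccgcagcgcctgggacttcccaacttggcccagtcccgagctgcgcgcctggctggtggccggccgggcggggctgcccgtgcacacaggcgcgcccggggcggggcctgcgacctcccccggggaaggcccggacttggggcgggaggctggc
Creb3l2 also lacked the letters in its window. Colgalt2, Plod2 and P3h2, the other members at least 1.5-fold lower, were not searched.

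**Figure D3:**
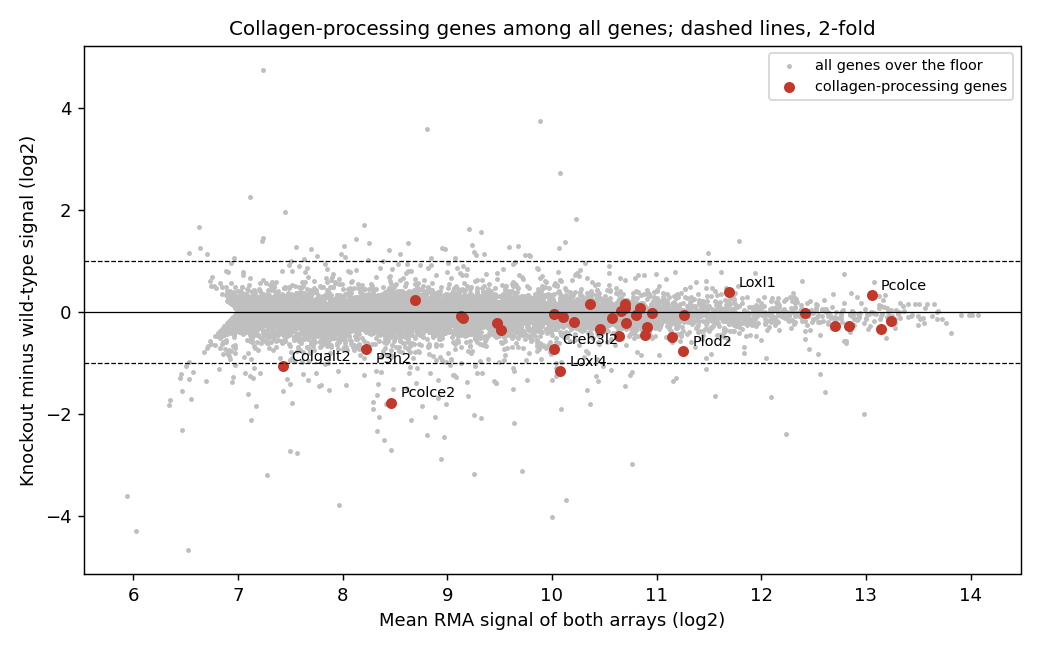
Knockout minus wild-type log2 signal (vertical axis) against the mean log2 signal of both arrays (horizontal axis) for 9897 genes over the floor (grey) and the 36 collagen-processing genes (red). The 6 members at least 1.5-fold lower and the 2 with the highest values, Loxl1 (0.38) and Pcolce (0.32), are named, and no member reaches the upper dashed line of 2-fold.

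In several families the differences of the paralogues lay apart. Pcolce2 was set against Pcolce, Plod2 against Plod1 and Plod3, Creb3l2 against Creb3l1, P3h2 against P3h1 and P3h3, and Colgalt2 against Colgalt1, and the first gene of each pair had a difference at least 0.52 below that of the other. The smallest of these gaps over any choice of probe sets was 2.08 for Pcolce2 and Pcolce, 0.66 for Creb3l2 and Creb3l1, and 0.48 for Colgalt2 and Colgalt1. It was 0.46 for Plod2 and Plod1, 0.31 for P3h2 and P3h1, and 0.30 for Plod2 and Plod3. A gap carries the scatter of both genes, which is larger than the 0.27 between probe sets of a gene. Gaps near 0.30 therefore do not set paralogues apart. For comparison, by their brightest probe sets Sar1b and Sar1a lay 0.38 apart, P4ha2 and P4ha1 0.26, and Kdelr3 and Kdelr2 0.11. With the second probe sets of Sar1a (0.63) and P4ha1 (0.74) the gaps to Sar1b and P4ha2 are larger. Those pairs are therefore no clear example of paralogues that lie close. The Colgalt2 gap is limited by the floor, which that gene passed through the wild-type array alone, so it had to differ. These genes were picked out after their values were seen.

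Among the substrates of this machinery, the cartilage collagens differed by far more than its own genes, while the median of the fibrous collagens was no larger in size. All 8 cartilage collagen genes had at least 2-fold lower signal in the knockout, with a median of -2.01. Col2a1, the chain of type II collagen, read 11.98 in the knockout and 13.98 in the wild type (-2.00). Col9a2 (-3.80), Col9a3 (-2.99) and Col9a1 (-1.58) encode type IX collagen, and Col11a2 (-2.09) and Col11a1 (-1.22) type XI collagen. Col27a1 stood at -2.02 and Col10a1 at -1.72, with knockout signals of Col9a2 (6.06) and Col10a1 (5.69) under the floor. Of 17 fibrous and other collagen genes 10 were higher and 7 lower, with a median of 0.17. Col3a1 (1.38) and Col14a1 (1.21) were the 2 that were at least 2-fold higher, while Col8a1 (-0.46) and Col6a1 (-0.40) were lower. A second probe set of Col14a1 stood at 0.65, under 2-fold, and Col8a1 ranged from -0.84 to -0.03 over 3 probe sets. Pcolce2 (-1.78) was the member whose difference exceeded that of Col11a1, the smallest among the cartilage collagens, and Loxl4 (-1.17) came near it.

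Most listed genes of transport, general folding, fibril assembly and supply were lower too. The lower lean was thus not particular to the members. Of all genes over the floor 59.2% were lower, with a median of -0.05, and of the members 77.8%. Other genes of transport between the endoplasmic reticulum and the Golgi were lower for 20 of 29, with a median of -0.07 and none at 1.5-fold. Beside Kdelr1, the largest differences there were those of Sec16b (-0.44), Lman1 (-0.34, with a probe set at 0.28) and Copa (-0.26). General folding genes of the endoplasmic reticulum were lower for 20 of 26, with a median of -0.11. Ero1a, the oxidase that recharges protein disulphide isomerase, was 1.86-fold lower by its brightest probe set, and Ern1 (-0.56), Pdia4 (-0.53) and Atf4 (-0.39) followed. Several probe sets of these genes lay nearer to 0, the highest at -0.05 for Ern1 and 0.00 for Atf4.

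Proteins that cut other propeptides or organise fibrils were lower for 8 of 11, with a median of -0.21, beside -0.20 for the members. Fmod, the fibril proteoglycan fibromodulin, stood at -1.12, the transglutaminase gene Tgm2 at -0.83 and the proprotein convertase gene Pcsk5 at -0.80. Lum, for the related lumican, went the other way at 0.96 and is also a fibroblast marker. Genes that supply proline, ascorbate, iron, zinc or copper were lower for 8 of 10 (median -0.15). Slc39a14, a metal transporter, stood at -0.70 with a second probe set at 0.11, and Aldh18a1, the first enzyme of proline synthesis, ranged from -0.59 to -0.11 over 5 probe sets. P4htm, a membrane-bound relative of the prolyl hydroxylases, stood at -0.43, and the copper importer gene Slc31a1 at -0.30 with a second probe set at 0.19.

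Genes listed under collagen breakdown had higher signal for 6 of 8, with a median of 0.21, where 59.2% of all genes were lower. This list includes inhibitors of breakdown, and the inhibitor genes Timp1 (0.06) and Timp2 (0.15) are among the 6. Mmp13, a collagenase, read 13.16 in the knockout and 12.43 in the wild type (0.73), Ctsk, a collagen-cutting cathepsin, stood at 0.49 and Mmp2 at 0.44. Timp3, an inhibitor of such proteases, differed by -0.83 and ranged from -0.85 to -0.20 over 4 probe sets. These medians are set beside each other as descriptions, since the fibroblast markers (median 0.27) and chondrocyte markers (-2.40) differed between the same arrays. The lists also share genes, so their medians are not independent. Col1a1, Col1a2, Col3a1 and Col5a1 are both fibroblast markers and listed fibrous collagens. Col2a1, Col9a1, Col9a2, Col9a3 and Col11a2 are both chondrocyte markers and cartilage collagens.

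**Figure D4:**
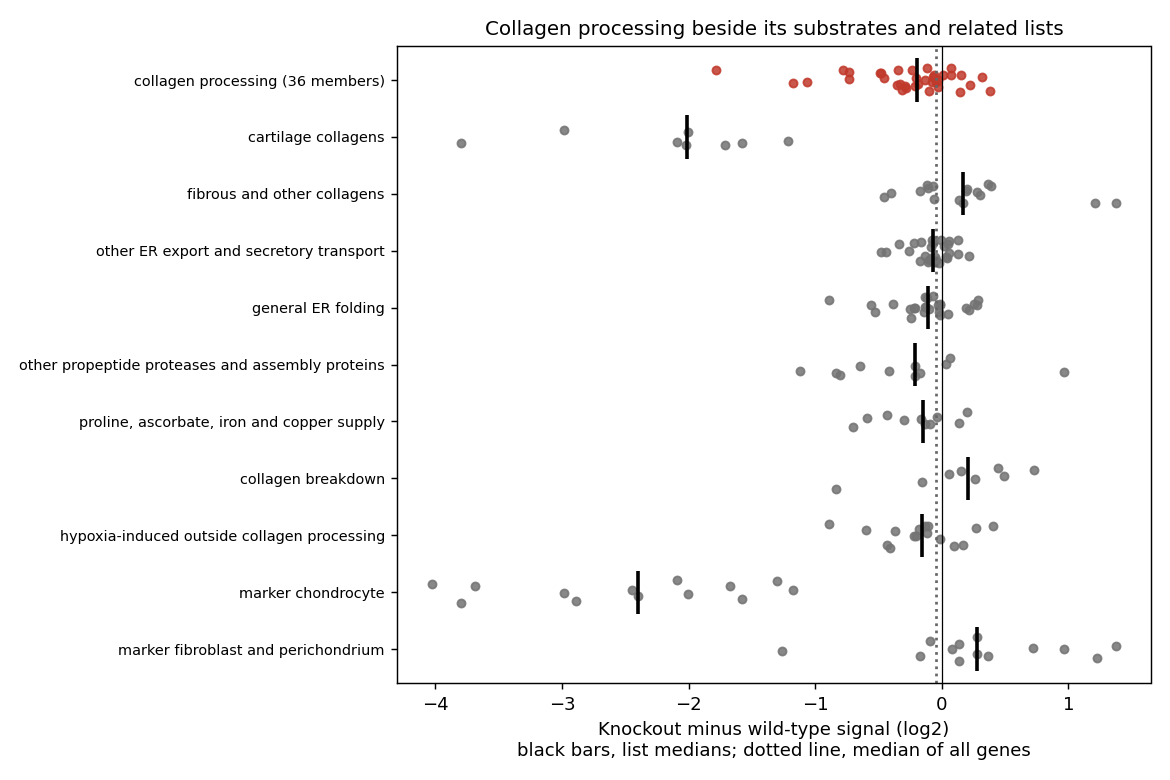
Knockout minus wild-type log2 signal of each gene over the floor (points) in the collagen-processing group and in 10 other lists, with the median of each list as a black bar and that of all genes as a dotted line. The processing genes (median -0.20) lie far to the right of the cartilage collagens (median -2.01). They lie left of the fibrous collagens (0.17) and of the collagen breakdown genes, listed with their inhibitors (0.21). The marker lists share genes with the collagen lists.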

How the data were processed

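Total RNA of 1 miR-140 knockout and 1 wild-type chondrocyte culture was measured, grouped by sample title. The deposited values are log2 signals summarised by the authors with Robust Multichip Average, per the labels' design text, in Affymetrix Expression Console 1.1, per the submitters' processing notes. The log2 scale was read from the values (3.24 to 14.2). The sorted values of the arrays differ by at most 0.157, so a change shared by most genes would not show, and RMA compresses differences of dim probe sets.

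Of 45101 probe sets, 34945 had a single symbol, giving 18193 genes. Each gene was represented by the probe set with the highest mean signal, with a floor of log2 7 in either array. Differences of 2-fold and 1.5-fold were counted, in Python 3.11.15 with pandas 2.3.3. A single array per genotype allows no test and limits the precision. All members over the floor were named, up to 4 genes of largest difference from each other pathway list, and all cartilage collagens. Osteoblast, adipocyte and smooth muscle marker lists had medians of -1.13, 0.16 and -0.39 over 2, 4 and 3 genes. Members and lists were chosen with earlier results of these data known. The counting step was checked on simulated data with known changes, which is no test of the members. Alternatives were the mean of all probe sets, leaving out probe sets with the suffix _s_at or _x_at, and floors of 6 and 8 and none. Further ones were median centring, further quantile normalization, lowess centring (span 0.2) and low values raised to 7. A floor in both arrays was added after the data were seen.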

Additional observations from a re-analysis of the deposited data

How the results depend on the processing

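The median difference of the members ranged from -0.20 to -0.14 over 10 other settings, and their counts at 2-fold (2 or 3 lower, none higher) and at 1.5-fold (5 or 6 lower, none higher) stayed within 1.5 times. All genes had a median of -0.05 to 0.00, and the members were lower for 68.6% to 78.4%, against 49.5% to 59.6% of all genes. After median centring these were 69.4% and 49.5%. Averaging a gene's probe sets turned the propeptide cleavage median to -0.74, since Bmp1 was then under the floor, and gave medians of -0.087 for the chaperone and isomerases and -0.23 for crosslinking. The galactosylation median was -0.45 with a floor of 8 or a floor in both arrays, which leave out Colgalt2. Of the 36 members, 30 kept their sign in all settings. P4ha1, Plod1, Ppib, Fkbp14, Kdelr2 and Lox changed it in at least 1, and each differed by less than 0.27 as reported. Settings that change only the floor, or raise low values to it, cannot reverse a sign. Averaging can do so only for members with several probe sets. The kept signs are thus partly fixed by the settings chosen. No paired analysis was possible because each group has 1 array and no test was made. Signal near the floor, as for Colgalt2, Pcolce2 and P3h2, each measured by 1 probe set, gives the least certain differences.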
